A study of Mus musculus with 2 samples.

Results

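The genes described here are the vascular endothelial growth factor (VEGF) ligands Vegfa, Vegfb, Vegfc, Figf and Pgf, their receptors Flt1, Kdr and Flt4, and the co-receptors Nrp1 and Nrp2, on 2 arrays of total RNA from mouse cells. They were found by the gene symbol in the scanner files, which gave 10 of 37007 named targets and 29 probes, each with 1 spot per array. 1 array carried RNA of cells treated with S180, as the labels call the agent, and the other RNA of control cells treated with DMSO, a common solvent. The labels name no cell type, strain, genotype, dose or exposure time, and do not say what S180 is. With 1 array per group no difference could be checked in a replicate, and no test was made. The genes were chosen by family with their S180 against DMSO signals on these arrays already known, so that the differences describe these arrays and support nothing further.

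VEGF ligands are secreted dimers that bind receptor tyrosine kinases, mostly on endothelial cells, and drive the growth of blood and lymphatic vessels. Vegfa, the main ligand for blood vessels, binds Flt1 and Kdr, whereas Vegfb and Pgf bind Flt1. Vegfc and Figf (now called Vegfd) bind Flt4, and Vegfc, once processed, also binds Kdr. Kdr carries most of the growth signal in blood vessel endothelium, Flt1 binds ligand tightly with weak kinase activity, and Flt4 acts mainly in lymphatic endothelium. Neuropilins have no kinase of their own, bind both VEGF ligands and class 3 semaphorins, and are also found on neurons and many other cells. Vegfa is spliced into isoforms that differ in how strongly they are held by the matrix.

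The arrays were Agilent whole-genome designs in 1 colour, with 60-base probes. The scanner software marked 61.91% of 59305 non-control spots as well above background for S180 and 60.57% for DMSO, and 0 as saturated. The arrays shared a slide and a scan. Signals below are processed intensities with the software's own error estimate (an SD for 1 spot, n = 1 array). Differences are S180 minus DMSO in log2 after each array's 75th percentile was subtracted, with an error propagated from the same estimates. Except for dim spots these estimates are close to the software's preset 10% of the signal. The error of 0.20 given for most differences therefore comes from that preset and is not an observed spread. That percentile was a signal of 615.5 in S180 and 747.9 in DMSO, so that equal signals correspond to a positive difference. Spots of 1 probe repeated on the array gave an SD for such a difference of 0.035 among bright genes (260 probes), 0.065 among genes of middle brightness (6 probes) and 0.26 among dim genes (11 probes), the measured genes being split into 3 equal groups by signal. These errors cover the array and leave out the culture, the RNA preparation and the labelling, and 2 arrays limit the precision throughout.

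Selected probes of Vegfa, Vegfc, Figf and Pgf are shown first, in lower case from 5′ to 3′, because the values of Vegfa turned on which probe was read. Probe positions are on build mm9, as deposited, and were not set against an exon or UTR annotation. Vegfa probe 2 lies on the minus strand at chr17:46159226-46159282, a span of 57 bases for a 60-base probe. Its sequence belongs to the exon for a basic, heparin-binding stretch that some Vegfa isoforms carry and others lack. That is known for the gene and does not come from an annotation used here. The files list 3 RefSeq transcripts for it, with at most 4 accessions given per probe, and the RefSeq table holds 10 for the gene. Vegfc probe 1 was designed on a transcript called isoform 62 and joins exons far apart, over chr8:55163262-55271349 on the plus strand, while Vegfc probe 2 lies at chr8:55244696-55244755. Figf probe 1 spans chrX:160832499-160833909 on the plus strand. For Pgf, with 1 probe at chr12:86508335-86510337 on the minus strand, the first 30 bases are given.
Vegfa probe 2: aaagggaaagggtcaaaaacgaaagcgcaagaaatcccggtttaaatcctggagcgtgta
Vegfc probe 1: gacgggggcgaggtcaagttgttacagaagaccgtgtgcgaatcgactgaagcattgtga
Vegfc probe 2: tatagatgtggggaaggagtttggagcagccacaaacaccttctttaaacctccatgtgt
Figf probe 1: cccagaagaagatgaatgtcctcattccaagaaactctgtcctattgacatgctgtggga
Pgf probe 1: tagaaactcacagactgaggaaccccaccc

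Vegfa was the member with the largest difference. Its probe 4 (chr17:46154387-46154446), which represents the gene as its brightest measured probe, read 3188 ± 319 in S180 and 1336 ± 134 in DMSO. The difference was 1.54 ± 0.20 (log2), or 2.9-fold higher in S180. Probe 3 (chr17:46155512-46155571) read 2286 ± 229 and 907 ± 90.7, a difference of 1.62 ± 0.20. Probe 1 read 1050 ± 105 and 398 ± 40, a difference of 1.68 ± 0.20. These 3 probes, at separate places along the gene, were higher on the S180 array by similar amounts, with a mean of 1.61 and an SD of 0.07 between probes, which share their RNA and are not replicates. Probe 2, printed above and on an exon that only some isoforms carry, read only 29.5 ± 4.0 and 22.2 ± 3.97, a difference of 0.69 ± 0.32 or 1.62-fold. It lay 0.92 below the mean of the other 3, and 0.99 ± 0.38 below probe 1. Among the 709 genes with 4 measured probes the median range between probes was 0.36, and 98.3% had a smaller range than Vegfa. The dimness of probe 2 stands beside its smaller difference, and the part of signal near background, of probe quality and of isoform in it was not tested. Normexp background correction adds an offset of 50 to every signal, which draws dim signals together and changes them most. With that correction probe 2 gave 0.36 and probes 1, 3 and 4 gave 1.55, 1.49 and 1.49.

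**Figure D1:**
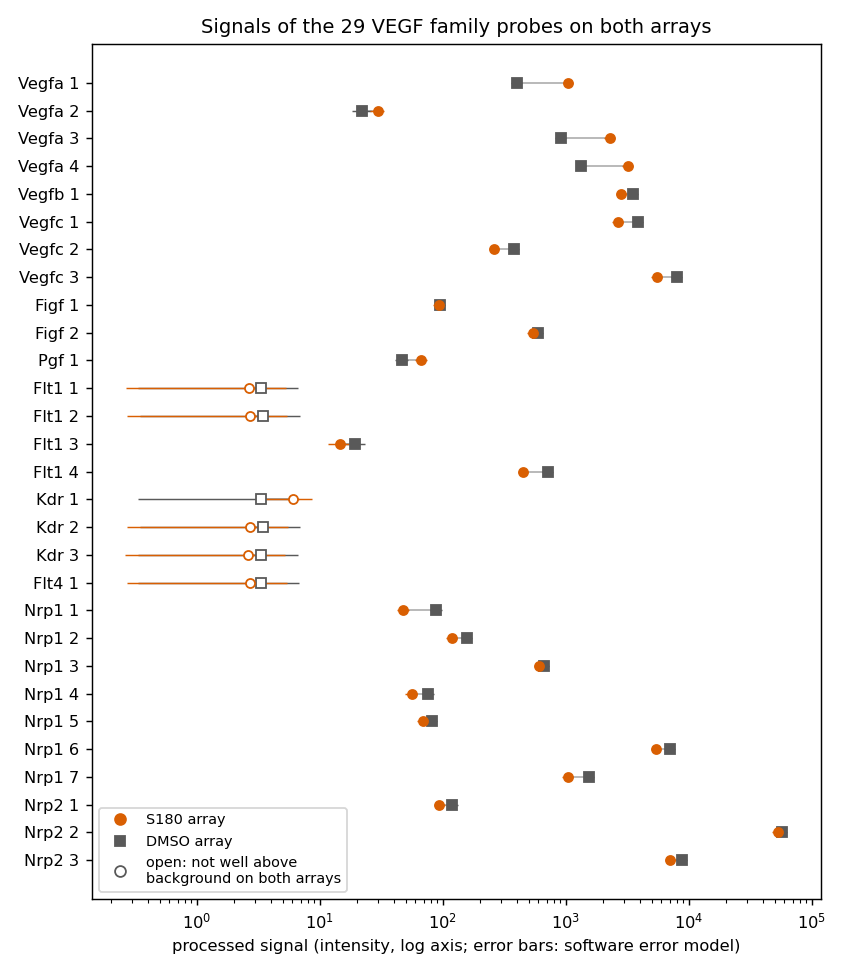
Processed signal (intensity, log axis) of all 29 VEGF family probes on the S180 array (circles) and the DMSO array (squares), with the software error model's SD as bars and open symbols for the 6 probes not well above background on both arrays. Vegfa probes 1, 3 and 4 have S180 signals of 1050, 2286 and 3188 against 398, 907 and 1336 in DMSO, while the Kdr and Flt4 probes sit between 2.62 and 6.01.

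Pgf, the placenta growth factor that binds Flt1, was the only other ligand with a difference past 1.5-fold. Its single probe, whose first bases are printed above, read 66.9 ± 7.21 in S180 and 46.6 ± 5.7 in DMSO. The difference was 0.80 ± 0.24 (log2), or 1.74-fold higher in S180, among dim genes, where repeated spots had an SD of 0.26. Vegfa lay 0.73 ± 0.31 above Pgf. With normexp correction, whose added offset acts most on such dim signals, the Pgf difference was 0.46, under 1.5-fold.

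The other ligands were close together on both arrays. Vegfb, a ligand of Flt1, read 2827 ± 283 in S180 and 3535 ± 354 in DMSO on its 1 probe (chr19:7057245-7057304), a scaled difference of -0.04 ± 0.20. Vegfc, the main lymphatic ligand, had 3 probes that were all lower in S180 by nearly the same amount. Probe 3 (chr8:55271533-55271592), the brightest, read 5533 ± 553 and 7991 ± 799, a difference of -0.25 ± 0.20 or 1.19-fold lower. Probe 1, on the isoform 62 junction, gave -0.27 from signals of 2650 ± 265 and 3896 ± 390, and probe 2 gave -0.26 from 263 ± 26.4 and 381 ± 38.3. The probe that joins the isoform's exons and the probes on the RefSeq transcript differed by less than the error of 0.20. Figf, the other ligand of Flt4, read 539 ± 54 and 594 ± 59.5 on probe 2 (chrX:160840395-160840454), a difference of 0.14 ± 0.20, and 93.4 ± 9.74 and 95 ± 10.1 on probe 1, a difference of 0.26 ± 0.21. Vegfa lay 1.78 ± 0.29 above Vegfc, 1.58 ± 0.29 above Vegfb and 1.39 ± 0.29 above Figf on the log2 scale of differences.

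**Figure D2:**
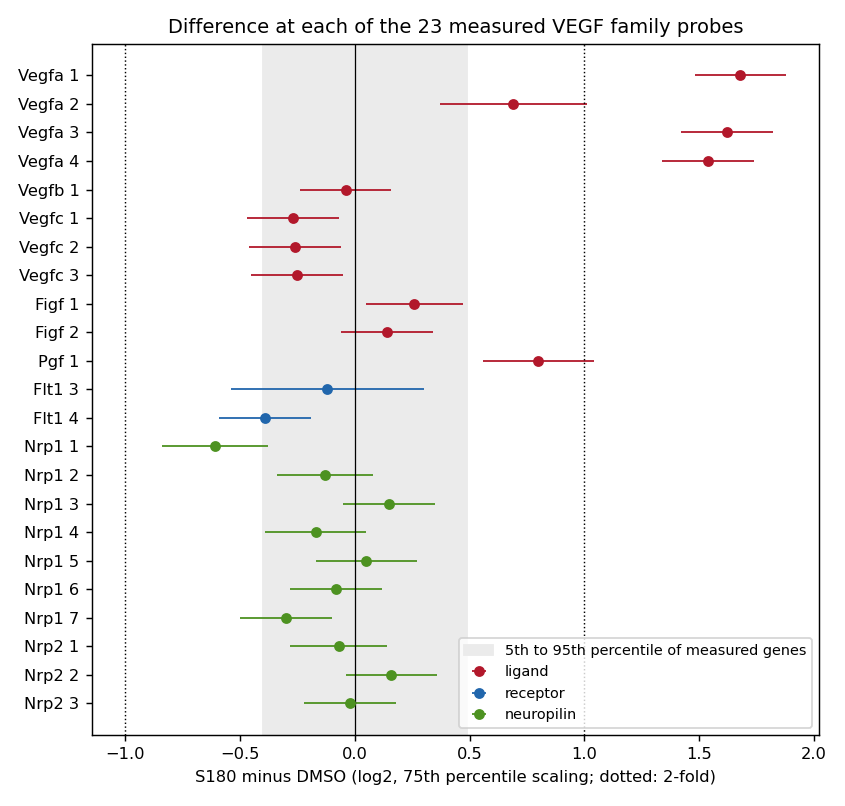
Difference between the arrays (S180 minus DMSO, log2 after 75th percentile scaling) for the 23 measured VEGF family probes, with the propagated error model SD as bars, the 5th to 95th percentile of all measured genes shaded and 2-fold dotted. Vegfa probes 1, 3 and 4 lie past 2-fold, at 1.54 to 1.68, Vegfa probe 2 lies at 0.69 and the 3 Vegfc probes lie together at -0.27 to -0.25.

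Among the receptors Flt1 alone was measured, and it was lower in S180. Its probe 4 (chr5:148373791-148373850) read 452 ± 45.3 in S180 and 719 ± 71.9 in DMSO, a difference of -0.39 ± 0.20 or 1.31-fold lower. Probe 3 (chr5:148448888-148448947) read 14.7 ± 3.11 and 19.4 ± 3.96, a difference of -0.12 ± 0.42 that its error covers. Flt1 probes 1 and 2 were not well above background on either array. Kdr, the principal signalling receptor, was not well above background on any of its 3 probes. They read 6.01, 2.73 and 2.62 on the S180 array and 3.35, 3.46 and 3.34 on the DMSO array, and the second of them was designed on an mRNA for the soluble form of the receptor. Flt4, the lymphatic receptor, read 2.70 and 3.36 on its 1 probe. The lowest signal of any probe well above background was 13.1 in S180 and 16.5 in DMSO. The Kdr and Flt4 signals lay below these values, and no fold is read from them. Only Kdr probe 1 on the S180 array carried a signal that the software had not replaced by a surrogate for a dim spot.

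The neuropilins differed little between the arrays. Nrp1 had 7 measured probes. Probe 6 (chr8:131027137-131027196), which represents the gene, read 5461 ± 546 in S180 and 7009 ± 701 in DMSO, a difference of -0.08 ± 0.20. The 3 Nrp1 probes on the RefSeq transcript ranged from -0.30 to -0.08 and the 4 designed on cDNA clones from -0.61 to 0.15. The lowest of these, probe 1, read 47.8 ± 5.51 and 88.9 ± 9.53, a difference of -0.61 ± 0.23, and was the only member probe more than 1.5-fold lower. Nrp2 gave -0.07 ± 0.21 on probe 1 (94 ± 9.84 and 120 ± 12.5), 0.16 ± 0.20 on probe 2 (53055 ± 5305 and 57703 ± 5770) and -0.02 ± 0.20 on probe 3 (7110 ± 711 and 8738 ± 874). Nrp2 probe 2 (chr1:62843061-62843120, plus strand), which represents the gene by its brightness, holds a run of 13 TG units, in capitals in the 30 bases shown here.
Nrp2 probe 2: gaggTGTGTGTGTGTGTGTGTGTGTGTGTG
A run of that length stands in 31 probes of the array, which carry 31 different gene names. All 31 were measured on both arrays, against 57.7% of all probes, and their lowest signal was 22208 in S180 and 23877 in DMSO. Their median difference was 0.20, beside 0.16 for Nrp2 probe 2. Without that probe Nrp2 is represented by probe 3, at -0.02. A further probe, named Npn2 in the files and an older name of Nrp2, fell outside the rule and read 11.3 in S180 and 3.33 in DMSO, not well above background.

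By its brightest measured probe, 1 of the 8 measured members (12.5%) was at least 2-fold higher in S180, namely Vegfa, against a background of 0.588% of the 20756 measured genes. No member was 2-fold lower, against 0.169%. At 1.5-fold 2 members, Vegfa and Pgf, were higher (background 3.08%) and 0 were lower (1.71%). Of the 23 measured member probes 3 were 2-fold higher, all of them Vegfa probes (background 0.63%), and 0 were 2-fold lower (0.15%). At 1.5-fold 5 probes were higher, those of Vegfa and Pgf (background 3.21%), and 1, of Nrp1, was lower (1.67%). Since the family was chosen with this comparison known, nothing is read from these shares. Vegfa had rank 31 of all measured genes, with 99.9% below it, Pgf rank 261 with 98.7% below it, and Flt1 lay near the other end with 5.4% below it. The 6 members other than Vegfa and Pgf ranged from -0.39, the value of Flt1, to 0.16. The median of the 8 was 0.05, and -0.04 without Vegfa, beside a median of 0.0 and an SD of 0.286 over all measured genes.

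**Figure D3:**
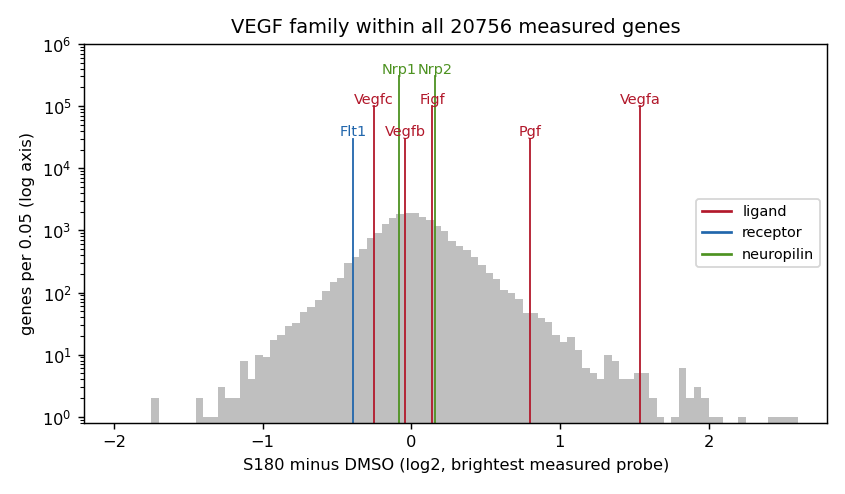
Histogram of the difference between the arrays (S180 minus DMSO, log2) for all 20756 measured genes on a log count axis, with a line for each of the 8 measured VEGF family genes coloured by role. Vegfa at 1.54 and Pgf at 0.80 lie in the upper tail, and the other 6 members lie between -0.39 and 0.16.

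All these differences are relative to the median gene of the arrays. Scaled on 7 spike-in transcripts, control RNAs added from a kit before labelling, the median gene lay at -0.36, and with no scaling at -0.28. On the spike-in scale Vegfa was still 2.25-fold higher (1.17) and Pgf was at 0.44, while Figf and Nrp2 turned to -0.22 and -0.20 and Flt1 was at -0.75, so that 2 members lay above 0 and 6 below. The same 4 members, Vegfa, Pgf, Figf and Nrp2, lay above the median gene under all 8 scalings and corrections, and Vegfa kept a rank between 19 and 31. Nrp2 did so only as read on probe 2, which holds the TG run found in probes of many gene names. Without that probe Nrp2 was at -0.02 under the main scaling, below the median gene.

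**Figure D4:**
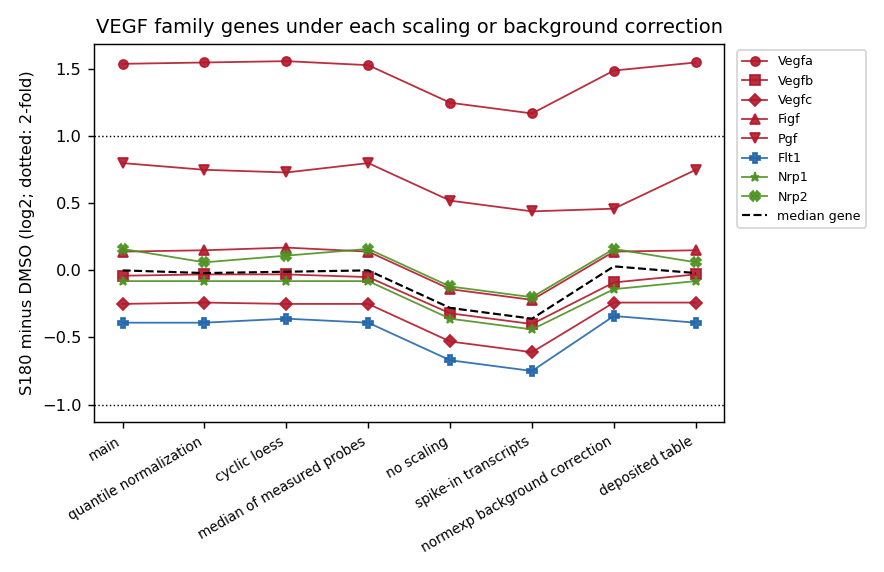
Difference between the arrays (S180 minus DMSO, log2) of the 8 measured VEGF family genes and of the median gene (dashed) under 8 scalings or corrections, with 2-fold dotted. Vegfa stays above 2-fold, from 1.17 to 1.56, while all genes move down together without scaling and on spike-in transcripts.

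The promoters of Vegfa and Pgf, the members past 1.5-fold, are shown as RefSeq gives them on assembly GRCm38.p6, as the 250 bases before the first annotated start (Vegfa chr17:46032378-46032627, Pgf chr12:85177314-85177563, both minus strand). Capitals mark GGGCGG, the core of the GC box bound by Sp1-family factors, and the letters ACGTG and GCGTG, the core bound by hypoxia-inducible factors, on either strand. The motifs do not overlap one another in these windows.
Vegfa promoter: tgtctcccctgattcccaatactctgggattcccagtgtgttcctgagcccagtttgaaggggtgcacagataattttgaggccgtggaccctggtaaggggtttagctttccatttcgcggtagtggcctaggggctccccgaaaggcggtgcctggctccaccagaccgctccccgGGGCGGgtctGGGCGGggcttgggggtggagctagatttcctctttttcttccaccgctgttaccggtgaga
Pgf promoter: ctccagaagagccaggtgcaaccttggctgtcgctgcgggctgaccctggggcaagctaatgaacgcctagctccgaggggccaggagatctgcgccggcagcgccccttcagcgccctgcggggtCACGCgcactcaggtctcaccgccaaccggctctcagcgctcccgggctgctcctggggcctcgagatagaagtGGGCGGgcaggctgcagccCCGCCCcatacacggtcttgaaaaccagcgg
The Vegfa window held 2 matches to GGGCGG and 0 to ACGTG or GCGTG, and the Pgf window held 2 to GGGCGG and 1 to GCGTG. The window before a second annotated Vegfa start (chr17:46025164-46025413) held 1 match to each of the 3 motifs, and that before a second Pgf start (chr12:85175983-85176232) held 0. The table held 12 such windows for the 10 members. Of these 7 held ACGTG or GCGTG, against 38.6% of 32851 windows of all genes, and 10 held GGGCGG, against 32.7%. The members' windows were 42.4% (Figf) to 76.4% (Vegfb) G and C. The shares were not matched for base composition, and nothing is read from them. Windows before Vegfb, Flt1, Kdr, Nrp1 and Nrp2, members with no 1.5-fold difference or not measured, also held GCGTG. A match is a description of the letters, and the absence of one covers this window only.

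The rest of the pathway was followed in 5 lists of genes. No measured gene of any of them was 2-fold apart, against the background shares of 0.588% higher and 0.169% lower, and the counts past 1.5-fold below stand against 3.08% higher and 1.71% lower. The lists are small, so that 1 or 2 genes already exceed these shares, and nothing is read from counts of 0, 1 or 2. Of the genes that process or hold VEGF outside the cell 17 of 21 were measured, with a median of 0.12, 11 above the median gene and 6 below. Ccn2, a matrix protein that binds Vegfa, was 1.71-fold higher (0.77), the 1 member past 1.5-fold. Sdc4, a heparan sulfate proteoglycan, was at 0.43 and Adamts1, a protease that binds Vegfa, at 0.40. At the other end Thbs1, an inhibitor of vessel growth, was at -0.45, and the syndecans Sdc2 and Sdc1 were at -0.24 and -0.22. The 3 probes of Sdc1 ranged from -0.22 to 0.36. Ccbe1 and Adamts3, which activate Vegfc, Mmp9 and Thbs2 were not measured.

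Of the signalling genes downstream of the receptors 47 of 48 were measured, Prkcb being the exception, with a median of 0.04, 29 above the median gene and 18 below. Ptprb, the endothelial phosphatase VE-PTP, read 184 in S180 and 423 in DMSO and was 1.89-fold lower (-0.92), the 1 member past 1.5-fold. Pla2g4a, a phospholipase, was at -0.31 and Pik3cd, a PI 3-kinase subunit, at -0.25, with -0.41 to 0.03 over its 3 probes. Map2k1, the kinase above ERK, was at 0.53, and Fyn, a Src-family kinase, at 0.34. Vav2, an exchange factor for Rac, was at 0.32 ± 0.32 from dim signals of 27.2 and 26.4, and its other measured probe gave -0.30.

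Class 3 semaphorins and plexins, which share the neuropilins, had 12 of 14 genes measured and 0 past 1.5-fold, with a median of 0.16, 7 above the median gene and 5 below. The receptor gene Plxna4 was at 0.40 and the ligand genes Sema3f and Sema3c at 0.37 and 0.26, whereas Plxna3, Sema3e and Plxna1 were at -0.53, -0.45 and -0.26. With 2 measured probes each, Plxna3 ranged from -0.93 to -0.53, Sema3f from 0.05 to 0.37 and Sema3c from 0.26 to 0.41. Plxna3 (49.3 in S180 and 86.3 in DMSO) and Sema3e (46.7 and 77.4) had dim signals. Plxna2 and Sema3a were not measured.

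Other angiogenic ligands and receptors had 20 of 27 genes measured and 0 past 1.5-fold, with a median of -0.08, 6 above the median gene and 14 below. The receptors Fgfr2 and Ephb4 were at 0.52 and 0.36 and the ligand Pdgfb at 0.30. Pdgfc, its receptor Pdgfra and Notch1 were at -0.53, -0.48 and -0.45. Cxcl12, Dll4, Fgf2, Hgf, Pdgfd, Tek and Tie1 were not measured.

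Genes that control Vegfa transcription and mRNA had 21 of 22 measured, Hif3a being the exception, with a median of 0.07, 11 above the median gene and 10 below. Vhl, which marks hypoxia-inducible factors for destruction, was at 0.64 and Atf4, a stress-response transcription factor, at 0.60, the 2 genes past 1.5-fold higher. Zfp36, which destabilises AU-rich mRNAs, was at 0.49. Arnt2, a partner of hypoxia-inducible factors, was at -0.68, the 1 gene past 1.5-fold lower, from signals of 32.1 and 62.7. Ppargc1a, a coactivator, and Tfap2a, a transcription factor, were at -0.30 and -0.20. The factor subunits Hif1a and Epas1, chosen after their values were seen, were at -0.03 and 0.0.

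**Figure D5:**
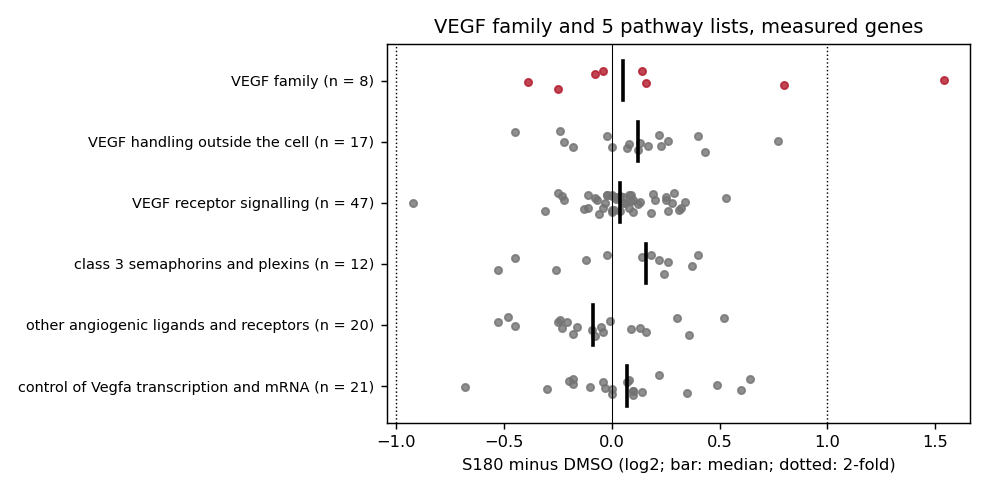
Difference between the arrays (S180 minus DMSO, log2) of each measured gene (points, spread vertically at random within a list) in the VEGF family and in 5 pathway lists, with the median as a bar and 2-fold dotted. Vegfa at 1.54 is the 1 point past 2-fold, and the list medians lie between -0.08 and 0.16.

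By size of difference the genes next to Vegfa, over 2 arrays and among genes above the median signal, were Rora, a nuclear receptor (1.55, a distance of 0.013 from Vegfa), Ankrd37, an ankyrin repeat protein (1.56, 0.024), and Pdk1, a kinase that inhibits pyruvate dehydrogenase (1.58, 0.043). Just below lay Fosl2, an AP-1 factor (1.52, 0.018), the catalase gene Cat (1.52, 0.019) and P4ha2, a prolyl hydroxylase of collagen (1.5, 0.039). Each of these distances is under the preset error of 0.20. Each is also under 0.065, the SD of repeated spots of middle brightness, the group of Vegfa. The order among them is not resolved.

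Markers of the cells that usually carry these receptors were examined because the labels name no cell type, and in RNA from a whole sample fewer cells of a type and less RNA per cell cannot be told apart. Of 14 endothelial markers 7 were measured, from -0.25 to 0.22, with a summed scaled level of 4.16 (log2) in S180 and 4.11 in DMSO, led by Egfl7. Among the measured ones Eng read 3251 in S180 and 3382 in DMSO, Vwf 550 and 740, Icam2 177 and 189, and Pecam1 78.1 and 113, with Esam and Robo4 dimmer. The other 7, Cdh5, Cldn5, Tek, Tie1, Emcn, Erg and Sox17, were not measured. Of 4 lymphatic endothelial markers 2 were measured (0.87 in S180 and 1.11 in DMSO, led by Pdpn), and of 4 pericyte markers 2 (-0.95 and -0.74, led by Pdgfrb). Macrophage markers had 6 of 9 measured (3.48 and 3.33, led by Itgam) and T and B cell markers 3 of 5 (1.77 and 1.65, led by Lck). Fibroblast markers, with 5 of 7 measured, all lay below the median gene (1.19 in S180 and 1.73 in DMSO, led by Col1a2), from -1.72 to -0.02. Epithelial markers had 3 of 6 measured (-3.41 and -2.91, led by Cdh1), also below the median gene, from -0.89 to -0.08. All 7 melanocyte markers were measured, from -0.12 to 0.26, with the highest summed level of the 9 marker lists (10.34 and 10.18, led by Mlana). Mlana read 215584 in S180 and 233546 in DMSO, and the dimmest of them, Tyr, 4651 and 5683. Neural markers had 4 of 6 measured (5.37 and 5.07, led by Nes). Of the fibroblast markers 1, Lum, was 2-fold lower (-1.72), on 1 probe with dim signals of 22.2 in S180 and 89.0 in DMSO. The share of all measured genes 2-fold lower was 0.169%, and that 1.5-fold lower 1.71%. Lum and Col1a2 were the 2 past 1.5-fold, Col1a2 with -0.83 to -0.33 over its 2 probes, while Col1a1 was at -0.02 ± 0.20. Of the epithelial markers 0 were 2-fold lower and 1 was past 1.5-fold, with signals from 13.3 to 47.2, near the lowest well above background. The marker lists are small, and nothing is read from these counts. The part of other cell types in the VEGF family values was not tested.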

How the data were processed

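Total RNA of 2 samples, grouped by the agent in the labels, was labelled with Cy3 and hybridised to 1 array each, per the labels' protocols. The scanner tables hold spot intensities as Agilent Feature Extraction 10.7.1.1 deposited them, with background subtracted and surrogates for dim spots, per the file headers. The deposited series table holds log2 values that matched quantile-normalised log2 processed signals on all 56602 probes (Pearson's r of 1.0 for each column and for the differences, rounded; both medians 5.27), which settled scale and direction and showed no centring; it served as an alternative.

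Control and outlier-flagged spots were left out, spots of a probe averaged in log2, and each array's 75th percentile over probes subtracted. A probe counted as measured when well above background and not saturated on both arrays. A gene was represented by its brightest measured probe. Probes other than the family's were named by accession (32992) or synonym (520) through a RefSeq table of GRCm38.p6, and 23090 kept the file's name. Promoters came from RefSeq on that assembly. Errors were the scanner software's, which include a preset 10% of the signal.

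The family's members and all lists were chosen with earlier results of these data known. Named were all members, the 3 largest differences in each direction of each pathway list, and the 3 measured genes on each side of Vegfa, without predicted, clone, locus or receptor-family names. Alternatives were other scalings, normexp correction (offset 50), other probes per gene, filters and fold thresholds of 1.5 and 3. limma 3.58.1 in R 4.3.3 ran the normalizations and Python 3.11.15 the rest, tested on simulated data.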

Additional observations from a re-analysis of the deposited data

How the results depend on the processing

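No paired analysis was possible because each group held 1 array, and no array could be left out. The Vegfa difference of 1.54 was 1.25 with no scaling, 1.17 on spike-in transcripts, 1.38 as the mean of its probes and 0.69 on its dimmest probe. The count of 1 member 2-fold higher was 0 by dimmest probe and at 3-fold, and 2 at 1.5-fold and without the filter on dim probes, which added Kdr at 1.13 from signals not well above background. The members' median of 0.05 was -0.23 with no scaling, -0.31 on spike-in transcripts, -0.06 by dimmest probe and -0.03 without the Nrp2 repeat probe, an alternative chosen after seeing the data. The 122 genes 2-fold higher were 62 with no scaling, 48 on spike-in transcripts, 74 with normexp, 1774 without the filter, 639 at 1.5-fold and 24 at 3-fold. The 35 genes 2-fold lower were 173, 273, 7, 810, 355 and 2 in the same order, and 12 among probes above the median signal. In the pathway lists 0 genes were 2-fold apart, 1 with no scaling (Ptprb, -1.2), 2 on spike-in transcripts (Ptprb, -1.28, and Arnt2, -1.05) and 5 at 1.5-fold. Rora, 2-fold higher by its brightest probe, was at -0.06 on its dimmest. Among smaller values Figf and Nrp2 changed sign with no scaling (-0.14 and -0.12) and on spike-in transcripts (-0.22 and -0.20), and Nrp2 also on its dimmest probe (-0.07) and without the repeat probe (-0.02). Signal over background leaves Kdr and Flt4 without a value and widens the error of Vegfa probe 2 (0.32) and Flt1 probe 3 (0.42).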
